A study of Mus musculus with 6 samples.

Results

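Ribosomal protein pseudogenes are copies of ribosomal protein messenger RNAs that were reverse transcribed and inserted elsewhere in the genome, usually without introns or a promoter of their own. Ribosomal protein genes are among the most strongly transcribed genes of every cell, and in mammals most of them have such copies. A copy keeps most of the sequence of its parent gene. The bases of a sequencing read therefore single out a copy only where it differs from the parent and from the other copies. The copies described here were all genes of the count table whose GENCODE symbol is a ribosomal protein name followed by -ps and an optional number, which gave 300 pseudogenes of 54232 genes. They are named for 62 parent genes, led by Rpl31 and Rps12 with 24 copies each and Rpl21 with 15. The annotation calls 287 of them processed pseudogenes and 7 transcribed processed pseudogenes, while the remaining 6 are annotated as protein coding.

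Testes of mice labelled Dis3l2 cKO (3 libraries) were compared with testes of mice labelled Dis3l2 WT (3 libraries), all at postnatal day 4 and all of the strain label B6D2F1, by RNA-seq of the whole organ. The labels name neither the promoter nor the cell type of the deletion, and give the control animals no allele beyond WT. Dis3l2 encodes a 3′ to 5′ exoribonuclease that degrades RNAs with uridine tails, and its reads over the whole gene did not separate the groups and so gave no check of the labels: it had 30.6, 31.0 and 33.6 CPM, a gene's reads scaled to the size of the library, in the cKO libraries and 32.8, 31.0 and 32.1 CPM in the WT libraries. Reads given to genes came to between 26126694 and 43265614 per library, with cKO 1 the lowest. Germ cell markers separated the groups, since 7 of 8 listed genes were called lower in cKO testes and their summed level was 485 to 511 CPM in the cKO libraries and 914 to 969 CPM in the WT libraries. In whole testis, fewer cells of a type and less RNA per cell cannot be told apart. The Sertoli list summed to 3676 to 4408 CPM in cKO and 3423 to 3565 CPM in WT testes, the Leydig list to 476 to 526 CPM in cKO and 428 to 440 CPM in WT testes, and the macrophage list to 39.1 to 42.3 CPM in cKO and 28.6 to 33.8 CPM in WT testes. Called higher were 1 of 8 Sertoli, 3 of 6 Leydig and 2 of 4 macrophage genes, and none of these lists had a gene called lower. The peritubular sums overlapped, at 1308 to 1748 CPM in cKO and 1387 to 1442 CPM in WT testes. So did the red blood cell sums, at 16.8 to 24.0 CPM in cKO and 13.7 to 31.4 CPM in WT testes. No gene of those lists was called. No listed marker was at 0. Whether the make-up of the testes has a part in any value below was not tested.

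Of the 300 pseudogenes, 30 had no read in any library and a further 107 had 1 to 14 reads in the 6 libraries together. A filter on low counts that was applied to all genes kept 100 pseudogenes. The comparison asked which of them had more reads, or fewer, in all 3 cKO libraries than in all 3 WT libraries, and whether the parent gene went the other way. The copies were gathered by name, but those singled out below were chosen by their cKO and WT read counts, so their fold changes are a description. The libraries of the 2 groups did not overlap for 22 of the 100 kept pseudogenes (22%), against 28.2% of the 20153 genes that passed the same filter. Of these 22, 13 were higher in cKO testes, against 13.6% of all kept genes, and 9 lower, against 14.6%. Nothing is read from these shares, since the comparison is the one put to the copies. The quasi-likelihood test of edgeR, adjusted over all of those genes by the Benjamini-Hochberg method, called 4 of the 100 kept pseudogenes (4%) at an adjusted p under 0.05, against 8.34% of all kept genes. Rps15a-ps4 and Rpl21-ps11 were the 2 called higher in cKO testes, against 3.40% of all kept genes, and Rps15a-ps8 and Rps15a-ps6 the 2 called lower, against 4.94%. Nothing in the labels ties each library to its own mouse, and such a test therefore measures the spread between these libraries.

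3 of these 4 pseudogenes are copies of 1 gene, Rps15a, which encodes a protein of the small ribosomal subunit. The lines below show the last 300 bases of the Rps15a coding sequence (positions 94 to 393, counted from the first base of the start codon) and the matching stretch of the 3 copies, to show how closely they resemble each other. Capitals in the copies mark bases substituted or added relative to Rps15a in the alignment, and missing bases are not marked.
Rps15a-ps4: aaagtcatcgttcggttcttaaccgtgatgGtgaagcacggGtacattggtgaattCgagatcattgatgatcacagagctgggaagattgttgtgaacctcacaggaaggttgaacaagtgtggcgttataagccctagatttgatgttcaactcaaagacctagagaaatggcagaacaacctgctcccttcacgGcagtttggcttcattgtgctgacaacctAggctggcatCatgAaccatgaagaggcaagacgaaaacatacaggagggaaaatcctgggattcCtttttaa
Rps15a-ps8: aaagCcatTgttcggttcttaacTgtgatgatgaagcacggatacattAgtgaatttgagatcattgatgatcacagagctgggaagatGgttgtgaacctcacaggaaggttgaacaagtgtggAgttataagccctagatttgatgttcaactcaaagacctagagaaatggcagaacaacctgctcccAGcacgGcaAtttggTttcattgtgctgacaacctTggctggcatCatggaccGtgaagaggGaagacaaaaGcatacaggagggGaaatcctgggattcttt
Rps15a-ps6: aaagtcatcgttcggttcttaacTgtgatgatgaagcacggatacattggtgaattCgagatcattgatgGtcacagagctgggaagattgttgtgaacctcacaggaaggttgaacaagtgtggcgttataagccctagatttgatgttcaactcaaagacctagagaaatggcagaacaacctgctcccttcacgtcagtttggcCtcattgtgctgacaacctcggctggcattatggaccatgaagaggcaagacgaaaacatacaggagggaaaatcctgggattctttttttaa
Rps15a: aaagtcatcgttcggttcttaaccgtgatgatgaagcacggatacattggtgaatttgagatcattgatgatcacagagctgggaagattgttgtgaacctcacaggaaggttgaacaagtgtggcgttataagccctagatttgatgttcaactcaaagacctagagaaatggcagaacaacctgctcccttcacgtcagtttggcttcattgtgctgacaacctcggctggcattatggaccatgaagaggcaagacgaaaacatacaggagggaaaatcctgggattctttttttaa
Rps15a lies at chr7:118104372-118116188 on the minus strand of GRCm38, Rps15a-ps4 at chr4:132219988-132220489 on the minus strand, Rps15a-ps8 at chr4:53791070-53791456 on the minus strand and Rps15a-ps6 at chr11:6172644-6173036 on the minus strand; the letters come from the GENCODE M21 transcripts. No other gene of the table spans Rps15a-ps4 or Rps15a-ps8, whereas Rps15a-ps6 lies within the span of Nudcd3, a gene on the same strand. Over the whole coding sequence, Rps15a-ps4 carried 9 substitutions and lacked 1 base. Rps15a-ps8 carried 26 substitutions, lacked 8 bases and had 2 added bases, and Rps15a-ps6 carried 5 substitutions with no base added or missing. Of the substitutions found in the 8 copies, 56 were carried by a single copy and 11 by at least 2 of them. T150C, with the base of Rps15a given first, was shared by 6 copies, Rps15a-ps4 and Rps15a-ps6 among them, while T291G and T330C were shared by Rps15a-ps4, Rps15a-ps8 and 2 other copies. In Rps15a-ps4, 57.4% of the 50-base words occurred in no other gene model, against 90.5% in Rps15a-ps8 and 44.8% in Rps15a-ps6. Rps15a-ps4 shared 38.2% of its words with Rps15a itself and 32.1% with Rps15a-ps6. Its reads were counted over 502 bases, longer than the 392 bases that match the coding sequence, and over that longer transcript 64.5% of the words were unshared.

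Rps15a-ps4 had 339, 548 and 680 reads in the cKO libraries and 38, 21 and 21 reads in the WT libraries. As CPM these were 12.9, 16.02 and 19.5 in cKO testes and 0.904, 0.484 and 0.586 in WT testes, a log2 fold change of 4.61 (SE 0.22). Every cKO library lay far above every WT library, by more than for any other kept pseudogene. Rps15a-ps8 went the other way, with 5.94, 6.17 and 6.08 CPM in cKO testes and 15.4, 14.3 and 13.0 CPM in WT testes (log2 fold change −1.23, SE 0.11). Rps15a-ps6 had 1.6, 1.11 and 1.55 CPM in cKO testes and 3.76, 3.27 and 3.29 CPM in WT testes (log2 fold change −1.28, SE 0.21). Its host gene Nudcd3, which encodes a NudC domain protein, had a log2 fold change of −0.19 (SE 0.06). All 3 copies kept their call and their direction under every alternative that was run.

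The other copies of Rps15a had far fewer reads than Rps15a-ps8. In cKO testes Rps15a-ps3 was close to Rps15a-ps6, with means of 1.38 and 1.42 CPM. Rps15a-ps5 had 0.724, 0.789 and 0.688 CPM in cKO testes and 0.286, 0.276 and 0.530 CPM in WT testes (log2 fold change 1.02, SE 0.43), and the groups did not overlap. Rps15a-ps3 was also apart, though narrowly, with 1.91, 0.965 and 1.26 CPM in cKO testes and 0.952, 0.875 and 0.753 CPM in WT testes (log2 fold change 0.66, SE 0.33). The groups overlapped for Rps15a-ps7 (log2 fold change 0.23, SE 0.27) and Rps15a-ps2 (0.80, SE 0.50), which are named here, with Rps15a-ps1, after their values were seen, to complete the family. Rps15a-ps1, which the filter removed, had 1, 1 and 0 reads in the cKO libraries and 6, 6 and 3 reads in the WT libraries. A further copy whose symbol lies outside the naming rule, Gm26983, had 24, 39 and 17 reads in the cKO libraries and 91, 93 and 61 reads in the WT libraries (log2 fold change −1.25, SE 0.31), and it too was named after its values were seen.

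**Figure D1:**
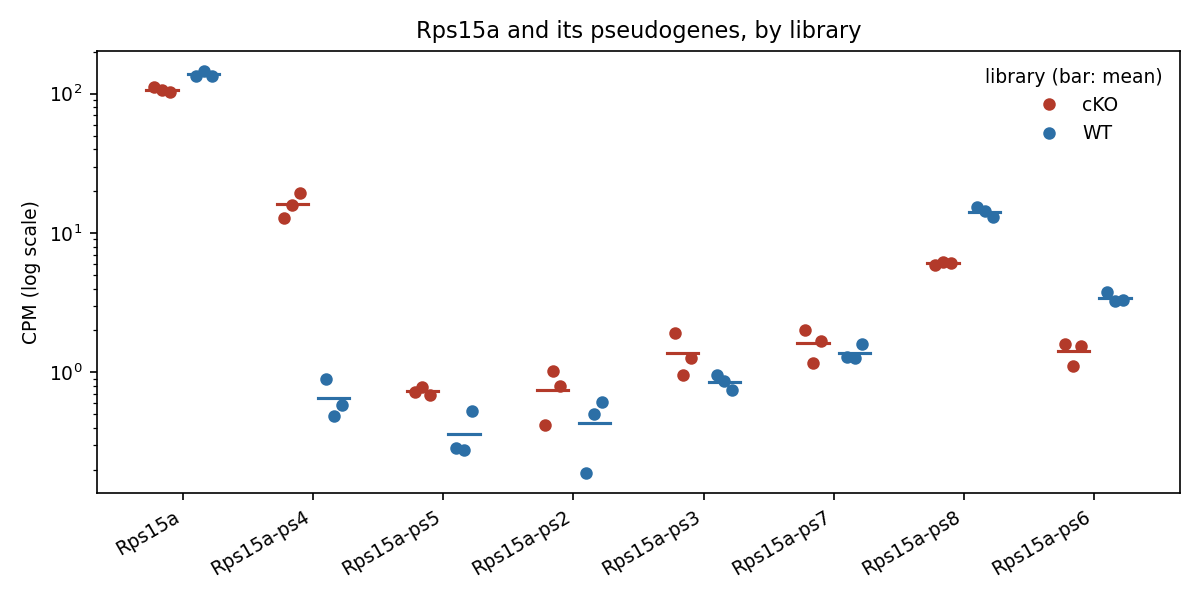
CPM on a log scale for Rps15a and its 7 kept pseudogenes, with cKO libraries (red) left of WT libraries (blue), 1 point per library and a bar at the mean. The 3 cKO libraries of Rps15a-ps4 lie between 12.9 and 19.5 CPM, above all WT libraries, while those of Rps15a, Rps15a-ps8 and Rps15a-ps6 lie below all WT libraries.

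The parent gene had 111.0, 105.8 and 102.5 CPM in cKO testes and 134.2, 145.8 and 134.3 CPM in WT testes (log2 fold change −0.38, SE 0.06). Rps15a was therefore lower in every cKO library, opposite in sign to Rps15a-ps4, Rps15a-ps5 and Rps15a-ps3 and of the same sign as Rps15a-ps8 and Rps15a-ps6. The mean difference was −31.7 CPM for Rps15a (cKO minus WT), against 15.5 CPM for Rps15a-ps4. All 8 copies together had 28.1 ± 3.1 CPM in cKO testes and 21.5 ± 1.3 CPM in WT testes (SD, n = 3 each). Without Rps15a-ps4 the remaining 7 copies summed to 11.99 ± 0.70 CPM in cKO testes and 20.9 ± 1.1 CPM in WT testes. The sign for the copies as a group thus turned on that 1 copy. Parent and copies added together came to 134.6 ± 1.8 CPM in cKO testes and 159.6 ± 6.5 CPM in WT testes. These sums hold only the reads counted for Rps15a and its 8 named copies. Whether sequence differences between the mice of the 2 groups have a part in these values was not tested. Around Rps15a-ps4, 2 of the 39 kept genes within 1 Mb on either side were called, and their median log2 fold change was −0.01. None of the 11 kept genes around Rps15a-ps8 and none of the 37 around Rps15a-ps6 was called. Of all kept genes 8.34% were called, and nothing is read from such small counts.

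Rpl21, which encodes a protein of the large subunit, had the only other called copy. Rpl21-ps11 had 2.51, 2.63 and 2.04 CPM in cKO testes and 1.05, 1.15 and 1.23 CPM in WT testes (log2 fold change 1.07, SE 0.23), and did not pass the test in the fits without cKO 2, without WT 1 or without WT 2. Rpl21-ps8 was likewise higher, with 3.09, 1.93 and 1.66 CPM in cKO testes and 1.07, 1.34 and 0.893 CPM in WT testes (log2 fold change 1.0, SE 0.29). Rpl21-ps9 was lower, though on 7, 7 and 5 reads in the cKO libraries and 17, 16 and 15 reads in the WT libraries (log2 fold change −0.96, SE 0.51). Rpl21-ps3, named after its values were seen, was lower by a small margin, with 0.838, 1.26 and 1.29 CPM in cKO testes and 1.83, 1.31 and 1.34 CPM in WT testes (log2 fold change −0.39, SE 0.28). The parent itself had 87.6, 81.6 and 93.4 CPM in cKO testes and 45.5, 58.1 and 80.8 CPM in WT testes (log2 fold change 0.51, SE 0.15). All cKO libraries of Rpl21 were above all WT libraries, but the WT libraries spread widely and the gene did not pass the test without a replicate block. The parent thus had the sign of Rpl21-ps11 and Rpl21-ps8 and the opposite sign to Rpl21-ps9 and Rpl21-ps3. Its 15 copies summed to 11.3 ± 1.7 CPM in cKO testes and 9.61 ± 0.30 CPM in WT testes (SD, n = 3 each). For 7 further kept copies of Rpl21 the groups overlapped.

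Other families had parent and copy on the same side. Rpl39, a gene of the large subunit, had 149.7, 155.1 and 160.9 CPM in cKO testes and 104.3, 124.1 and 133.1 CPM in WT testes (log2 fold change 0.37, SE 0.08). Its single copy Rpl39-ps had 5.64, 5.61 and 5.48 CPM in cKO testes and 3.71, 4.77 and 4.30 CPM in WT testes (0.39, SE 0.14). Rpl10a, of the large subunit too, had a log2 fold change of 0.26 (SE 0.06) and its copy Rpl10a-ps1 one of 0.27 (SE 0.11). In both pairs copy and parent were higher in every cKO library by close to the same fold, though neither copy passed the test. For Rpl10a-ps1 the groups were barely apart, with 22.17 CPM in its lowest cKO library and 22.1 CPM in its highest WT library. Every 50-base word of Rpl10a-ps1 also occurs in another gene model, and its sequence matches Rpl10a over its whole length, so which of the 2 its reads came from cannot be told from these models. Rpl39-ps was named after its values were seen.

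Other copies whose groups did not overlap mostly had few reads. Rps27-ps1 had 10, 11 and 13 reads in the cKO libraries and 8, 8 and 1 reads in the WT libraries (log2 fold change 1.36, SE 0.63). Rpl13a-ps1 (0.86, SE 0.47) and Rpl31-ps17 (0.67, SE 0.46) were higher on at most 20 reads in a library. Lower in cKO testes on few reads were Rps2-ps13, with 3, 19 and 6 reads in the cKO libraries and 26, 36 and 26 reads in the WT libraries (−1.32, SE 0.54) and Rpl13-ps6 (−1.17, SE 0.56). None of these 5 passed the test. Among their parents, Rpl31 (0.15, SE 0.05) was apart with the same sign, while the groups overlapped for Rps27 (0.15, SE 0.08), Rpl13a (−0.08, SE 0.10), Rps2 (−0.17, SE 0.15) and Rpl13 (0.08, SE 0.06). Also apart, named after their values were seen, were Rpl18-ps1 (0.46, SE 0.25), Rps10-ps1 (0.18, SE 0.09) and Rpl28-ps3 (0.11, SE 0.36). Rpl18-ps1 gave no match to Rpl18, and Rps27-ps1 matched Rps27rt best, so the parent in the symbol need not be the source. At the edge of the split, the lowest cKO library of Rps10-ps1 had 17.31 CPM and its highest WT library 17.28 CPM, just apart, whereas Rpsa-ps1 just overlapped, with 0.381 CPM in its lowest cKO and 0.405 CPM in its highest WT library.

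**Figure D2:**
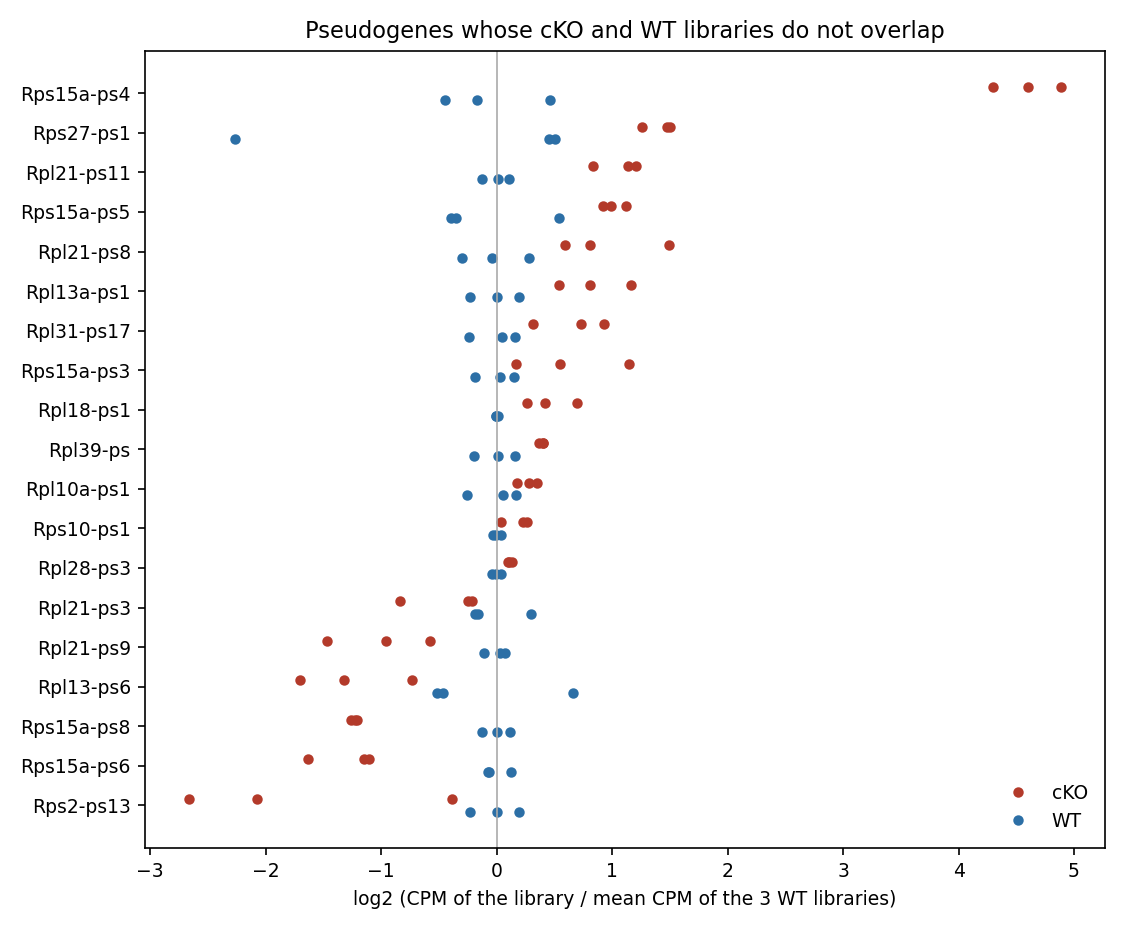
19 of the 22 kept pseudogenes whose cKO (red, upper point row) and WT (blue, lower point row) libraries do not overlap, as log2 of each library's CPM over the mean of the 3 WT libraries, 1 point per library. Rps15a-ps4 stands apart at the top with every cKO library above 4 on this scale, and for the rows near the middle the groups nearly touch.

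Over the 22 copies, the parent had the opposite sign in 8 and the same sign in 14. Of the 8 with a parent of opposite sign, 4 copies were higher in cKO testes and 4 lower. For 5 of them the parent's libraries were apart as well, and these were Rps15a-ps4, Rps15a-ps5, Rps15a-ps3, Rpl21-ps9 and Rpl21-ps3, so that 2 parents supplied all of them. The parent was apart with the same sign for 9 copies. Over all 100 kept copies, the parent had the opposite sign in 45 and the same sign in 55, and the median log2 fold change of the copies was 0.05, with 0.01 for all kept genes. Copies of 1 gene share that parent and much of their sequence, so these counts are not over independent values.

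**Figure D3:**
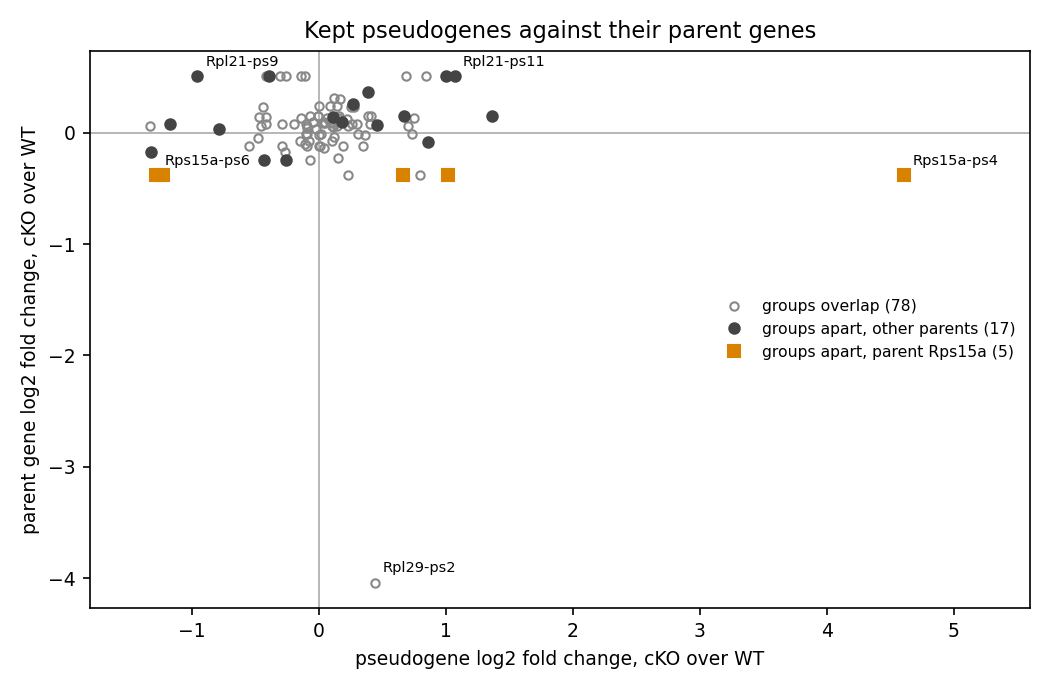
Log2 fold change (cKO over WT) of the parent gene against that of the pseudogene for the 100 kept copies, 1 point per copy. Open circles are copies whose libraries overlap, filled circles those that do not, and orange squares the 5 such copies of Rps15a. Most points lie near the origin, Rps15a-ps4 lies far to the right over a parent slightly below 0, and Rpl29-ps2 lies at the bottom, at its parent's value of −4.04.

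The largest fold change in a parent had no counterpart among its named copies. Rpl29, a gene of the large subunit that was singled out after its values were seen, had 56, 105 and 102 reads in the cKO libraries and 1995, 1944 and 1563 reads in the WT libraries (log2 fold change −4.04, SE 0.12). Its 3 copies summed to 0.445 ± 0.064 CPM in cKO testes and 0.393 ± 0.198 CPM in WT testes (SD, n = 3 each), and only Rpl29-ps2 passed the filter, with overlapping groups (0.44, SE 0.60). Outside the naming rule, 2 further copies of Rpl29 stood apart, and both were named after their values were seen. The groups overlapped for the other kept pseudogenes listed with them, Gm4945, Gm10548, 4931440P22Rik, Gm12508, Gm11533, Gm12987, Gm13841 and Gm8860. Of all kept genes, 28.2% were apart in either direction. Gm8210 had 6.82, 10.1 and 12.5 CPM in cKO testes and 4.00, 5.46 and 5.19 CPM in WT testes (1.01, SE 0.20), and Gm13213 had 9, 2 and 2 reads in the cKO libraries and 41, 42 and 32 reads in the WT libraries (−2.71, SE 0.59). Rpl29 averaged 2.71 CPM in cKO testes and 45.3 CPM in WT testes, a difference many times that of Gm8210.

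The copies with the most reads barely differed between the groups. Per kilobase of counted exon, the highest of 7 copies with the most reads was Rpl38-ps2 at 340.3 CPM per kb over all 6 libraries, followed by Rpl14-ps1 at 178.8, Rps26-ps1 at 106.5, Rpl36a-ps2 at 65.9, Rps13-ps1 at 44.4, Rpl10a-ps1 at 33.2 and Rpl3-ps1 at 32.9 CPM per kb. Rpl14-ps1 had 131.3, 112.0 and 120.2 CPM in cKO testes and 106.3, 120.8 and 110.1 CPM in WT testes (log2 fold change 0.11, SE 0.07), and its parent Rpl14 a log2 fold change of 0.05 (SE 0.07). Rpl38-ps2 had 80.6, 78.9 and 65.0 CPM in cKO testes and 63.5, 71.4 and 75.4 CPM in WT testes (0.09, SE 0.09), against 0.10 (SE 0.08) for Rpl38. Rps26-ps1 had 37.2, 58.5 and 59.1 CPM in cKO testes and 36.3, 50.4 and 45.6 CPM in WT testes (0.23, SE 0.16), against 0.06 (SE 0.07) for Rps26. The groups overlapped for all 3, and for Rpl3-ps1 (−0.02, SE 0.08), Rps13-ps1 (0.10, SE 0.10) and Rpl36a-ps2 (0.05, SE 0.09). Their parents Rpl3 (0.03, SE 0.06), Rps13 (0.06, SE 0.06) and Rpl36a (0.09, SE 0.06) overlapped as well. Rpl36a-ps2 lies within the span of Ddah1, a gene on the same strand whose log2 fold change was 0.00 (SE 0.06). The reads of all 300 copies together came to 566.6 ± 12.8 CPM in cKO testes and 533.0 ± 21.7 CPM in WT testes, and without Rps15a-ps4 to 550.5 ± 15.99 CPM in cKO testes and 532.3 ± 21.9 CPM in WT testes (SD, n = 3 each).

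Kept copies were closer to their parents than the copies that had too few reads. The median identity to the parent was 98.2% for the kept copies and 93.15% for the 200 others, and a median of 44.9% of the 50-base words of a kept copy was found in no other gene model, against 75% in the others. With words of 75 and of 100 bases the median for the kept copies was 64.45% and 80.55%. No unshared 50-base word was left in 12 kept copies, Rpl38-ps2, Rpl36a-ps2 and Rpl10a-ps1 among them, yet all 12 had reads that the table counts as theirs. The median share was 53.5% in the 22 copies whose groups did not overlap and 37.55% in the 78 whose groups did. A start codon was followed by an open frame to the last codon in 41 of the 100 kept copies and in 55 of the 200 others. The kept copies lie on 20 chromosomes, with 6 on the X chromosome, and 12 of them lie within a gene on the same strand.

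**Figure D4:**
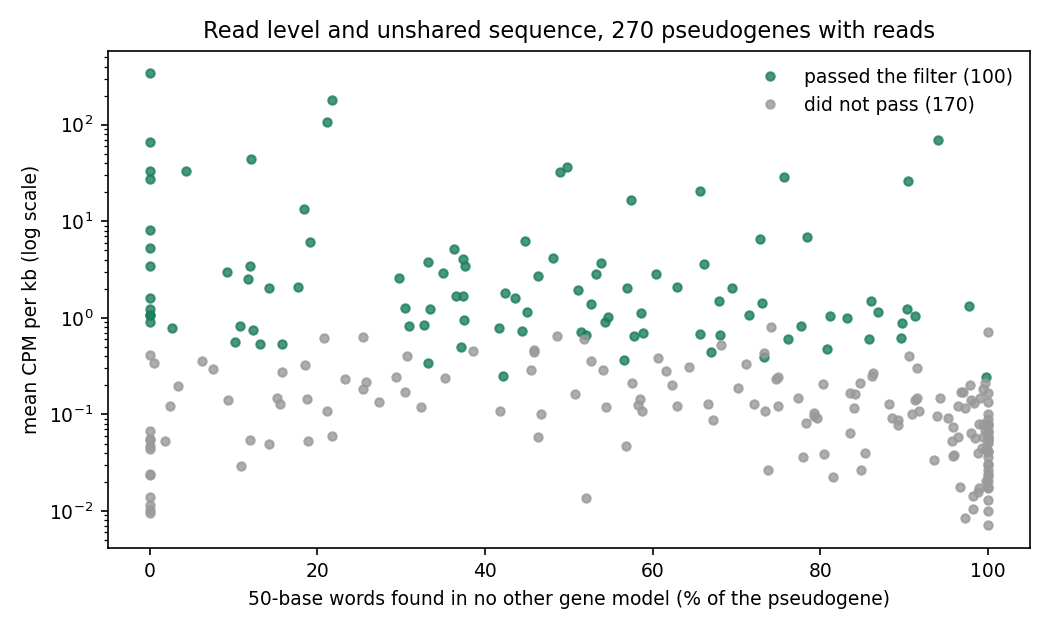
Mean CPM per kb over the 6 libraries (log scale) against the share of a pseudogene's 50-base words found in no other gene model, for the 270 pseudogenes with reads. Kept copies (green) spread over the whole range of unshared sequence, including 12 at 0%, and many of the others (grey) lie close to 100% with under 1 CPM per kb.

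Among the 200 copies that did not pass the filter, 170 had at least 1 read, and none had more than 29 reads in a library. In 4 of them every cKO library was above every WT library and in 6 below, on counts too low to read further. The share for all genes below the filter was not computed. In the fit without a filter, 11.5% of the 270 tested copies and 15.3% of all tested genes were apart in either direction. Of the functional ribosomal protein genes, 86 of 87 were kept, and 4 were called higher and 7 lower in cKO testes, with 75 not called. The called genes were 12.8% of those kept, against 8.34% of all kept genes, of which 3.40% were called higher and 4.94% lower. The median log2 fold change of the functional genes was 0.04. Their summed level was 19740 ± 440 CPM in cKO testes and 19420 ± 614 CPM in WT testes (SD, n = 3 each).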

How the data were processed

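Libraries were made from testis RNA with random and poly(T) priming, strand selection and depletion of unwanted transcripts, per the labels' protocols. The authors deposited a table of whole-number read counts per gene, made with featureCounts 1.6.4 per the file headers; cutadapt, HISAT2 and the build GRCm38.p5 are named in the submitters' processing notes. Per the file headers counting was stranded, over GENCODE release M18, with no option to count reads that align to several places or overlap several genes. Reads that align equally well to a copy and its parent are thus missing from both where the aligner reported both places.

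The 54232 identifiers were matched without version to GENCODE M21 (GRCm38), which named 54165 of them, and 293 of the 300 pseudogenes had the same start and end in both. Counts were filtered with filterByExpr at its defaults and scaled by TMM, and all kept genes were fitted together with edgeR 4.0.16 (R 4.3.3; quasi-likelihood test, two-sided, threshold 0.05 after Benjamini-Hochberg adjustment). The fit was tested on simulated data, in which 12 of its 143 calls were false. It called 56.1% of the planted absolute log2 fold changes of 0.5 and 76.0% of those of 1.0. CPM used the TMM-scaled library totals. Groups were called apart where the lowest library of one lay above the highest of the other. The standard errors come from this fit and include the spread between libraries.

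The share of unshared 50-base words was measured against all GENCODE M21 transcripts on both strands, since no genome sequence was used here, although the plan was to use the genome; sequence outside annotated transcripts is not covered. For 8 pseudogenes the counted exons are longer than the model used for it. Identity came from blastn 2.17.0. The parent is the gene in the symbol before -ps. Named pseudogenes are the kept ones with groups apart and an absolute log2 fold change of at least 0.5 and the 8 with the most reads, with their parents, same-strand hosts and Dis3l2; others are said to be chosen after their values were seen, and a few are not reported here. The members and lists were chosen with earlier results of these data known. Alternatives were other scalings, filters, tools, a replicate block and each library left out.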

Additional observations from a re-analysis of the deposited data

How the results depend on the processing

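Rps15a-ps4, Rps15a-ps8 and Rps15a-ps6 kept direction and call in every setting. Rpl21-ps11 kept its direction but lost its call without cKO 2 (adjusted p = 0.0742), without WT 1 (adjusted p = 0.0604) or without WT 2 (adjusted p = 0.0634, edgeR). With each library left out in turn, 1 to 4 pseudogenes were called higher (4 without cKO 1; 1 without cKO 2, WT 1 or WT 2) and 2 to 3 lower; 17 to 22 were apart and higher (22 without cKO 3), 11 to 16 apart and lower (16 without cKO 2, 15 without cKO 3), and 11 to 12 had a parent of opposite sign. By construction 2 libraries overlap less often than 3. Of all tested genes, 34.3% (without WT 2) to 43.9% (without cKO 1) were then apart in either direction. For the tested copies it was 26.2% (without WT 3) to 34.3% (without cKO 3). Over all genes, 236 to 1670 were called higher and 387 to 1705 lower, or 16.4% of kept genes without cKO 1, 3.81% without cKO 2, 7.02% without cKO 3, 3.64% without WT 1, 2.97% without WT 2 and 3.99% without WT 3. Without a filter 15 copies were apart and lower, and 11.5% of tested copies and 15.3% of all tested genes were apart in either direction. At 1 CPM or more in 3 samples, which tests 43 copies, 6 were apart and higher, 5 apart and lower, and 2 had a parent of opposite sign. That was 25.6% of those copies apart, against 32.3% of all genes tested at that level. Values near 0 changed sign: with a library left out, Rpl3-ps1 ranged between −0.07 and 0.03 (above 0 without cKO 1 or WT 3), Rpl36a-ps2 between −0.04 and 0.11 (below 0 without cKO 1), Rpl14 between −0.03 and 0.12 (below 0 without cKO 3), and Rpl3 between −0.02 and 0.09 (below 0 without WT 1). The cause of these changes was not tested. The labels do not say whether replicate numbers pair the samples, and 3 libraries per group are too few to settle it. Deviations from the group mean correlated at 0.031, 0.013 and 0.065 between same-numbered samples. Between differently numbered samples they correlated at −0.054 to 0.023. With the replicate block, 740 genes were called higher and 1058 lower, and 5 pseudogenes in place of 4; Rpl21 also passed (0.54). DESeq2 gave no adjusted p for 55 kept pseudogenes. Of the values of named genes and the median identity to the parent under alternatives, 438 kept direction and side of the threshold, 12 passed it where the reported value had not, 7 no longer passed, 5 changed sign and 15 could not be computed. Copies with few reads had wide standard errors, such as 0.63 for Rps27-ps1.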
